A study of Drosophila melanogaster with 7 samples.

Results

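The genes described here are 36 contractile and sarcomere genes of the visceral muscle that surrounds the fly midgut. They were chosen by symbol, and 35 of the 36 had a row in the count table of 10902 genes. The choice was made with earlier results of these data known. Shares of members called, set beside those of all genes, therefore describe the list and do not test it. TpnC41C, a troponin C gene, was not among the symbols of the table and is not analysed here. By role the 35 were 15 thin filament genes, 8 thick filament genes, 9 Z-disc and cytolinker genes, and 3 others (a calcium pump and 2 regulators).

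Drosophila melanogaster midguts were dissected without the crop, Malpighian tubules and hindgut, and RNA was sequenced from 7 libraries. All flies carried the temperature-sensitive driver esgts, were raised at 18 °C and were sampled 7 days after a shift to 29 °C. The control group (esgts> w1118) had 3 libraries, the group with RNA interference against schnurri (esgts> Shn-RNAi) had 2, and the group with the same RNA interference and 1 mutant copy of puckered (esgts> Shn-RNAi,PucE69/+, called Shn-RNAi puc) had 2. The driver is known to be active in intestinal stem cells and their immediate daughters, so the muscle itself is not its target. No group carried the PucE69 allele without the RNA interference, and the control label names w1118 and no control RNA interference, so strain background and RNA interference cannot be told apart. How many animals went into a library is not stated, and the p-values measure only the spread between these libraries, which may be technical.

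The midgut epithelium lies inside a layer of circular and a layer of longitudinal muscle, whose contractions move the gut contents. These muscles are striated in flies: thin filaments of actin, tropomyosin and troponin are anchored at Z-discs and slide past thick filaments of myosin when calcium binds troponin C. Several genes have a muscle-type copy and copies used elsewhere, and actins and troponin C genes form families whose members mark different muscles.

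Total counts ran from 11552527 to 18490676 per library, and 9076 genes passed the low-count filter. The 32 members that passed had between 80 and 21850 counts in each library. Levels are CPM, counts scaled to library sizes multiplied by TMM factors, which put the bulk of genes at equal levels. The factors ran from 0.856 to 0.980 in control, were 1.136 and 0.929 in Shn-RNAi and 1.048 and 1.226 in Shn-RNAi puc, so a level is not the plain share of counts. In bulk RNA fewer muscle cells, less RNA per muscle cell and more RNA from other cells cannot be told apart. The Act88F, TpnC4 and Zasp67 genes did not pass the filter: none had more than 5 counts in any library, or more than 0.318 CPM. Act88F and TpnC4 are the actin and the troponin C of indirect flight muscle, and Act79B, the actin of leg and jump muscle, stood between 5.60 and 13.3 CPM. The other muscle actins, Act57B and Act87E, were present at 1147 to 1293 and 280 to 327 CPM in control. The visceral mesoderm transcription factors bin and bap were found at 1.43 to 3.26 and 0.442 to 0.955 CPM in control. The libraries thus held abundant transcripts of muscle that is not flight muscle.

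Levels of the members in control midguts spanned several orders of magnitude. Per kilobase of median annotated transcript length, Act57B led with 705 CPM per kb. It was followed by Mp20, a calponin-related protein (422), troponin T (up, 249), both myosin light chains (Mlc1 229, Mlc2 228) and troponin I (wupA, 227 CPM per kb). The myosin heavy chain Mhc stood at 68.8, the alpha-actinin Actn at 17.9, and the giant elastic proteins bt (projectin) and sls (kettin and titin-like Sallimus) at 4.82 and 1.52 CPM per kb. Neighbours in this order such as Mlc1, Mlc2 and wupA lay closer together than their libraries did. Values per kilobase of the giant genes depend on which isoforms are used, since one median length was taken per gene.

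The first comparison asked how the levels of these genes in midgut RNA differ when schnurri is targeted in the progenitor cells of the epithelium. Transcripts were not assigned to the muscle layer or to other cells. The muscle actins Act57B and Act87E, the troponin C TpnC47D and the myosin light chain Mlc2 were called lower in Shn-RNAi midguts. Myosin heavy chain and the giant proteins were not called, and 2 members, Strn-Mlck and Zasp52, were called higher. Of the 32 tested members 4 were called lower (12.5%), beside 3.56% of all 9076 genes, and 2 were called higher (6.25%), beside 6.06% of all genes; in either direction it was 6 members and 9.62% of all genes (edgeR quasi-likelihood test, Benjamini-Hochberg adjusted p under 0.05). The median log2 change was -0.23 over the members and 0.03 over all tested genes. In 14 of the 32 (43.8%) both Shn-RNAi libraries lay below all 3 control libraries, beside 21.1% of all genes, and in 6 (18.8%) above them, beside 22.2%.

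In Shn-RNAi puc midguts more members were called. Of the 32, 12 were called lower (37.5%) where 6.25% of all genes were (15.0% in either direction), and 2 were called higher (6.25%) where 8.76% of all genes were. The median log2 change was -0.39, beside 0.02 over all genes, and 22 members (68.8%) lay below control in both libraries, beside 26.3% of all genes. Above control in both were 6 members (18.8%), beside 28.6% of all genes. Both comparisons with control share the 3 control libraries. The 6 members called in Shn-RNAi were also called in Shn-RNAi puc, where 8 further members were called lower.

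Several of these calls rested on the TMM factors. With libraries scaled by their totals alone, a check added after the data were seen, the median change of all genes was 0.21 in Shn-RNAi and 0.35 in Shn-RNAi puc, and that of the members was -0.04 and -0.06. On that scale 3 members were called lower in Shn-RNAi (1.81% of all genes) and 5 in Shn-RNAi puc (2.78% of all genes). Act57B, Act87E and TpnC47D were called lower in both comparisons, Mlc2 and Mlp60A in Shn-RNAi puc, and Strn-Mlck and Zasp52 higher in both. The calls of Mlc2 in Shn-RNAi and of Tm2, up, wupA, Mp20, Mlc1, Zasp66 and Mlp84B in Shn-RNAi puc were lost (adjusted p = 0.079 to 0.35), and Fhos and flr were called higher in Shn-RNAi puc. In each comparison 12 members (37.5%) lay below control without overlap on that scale, beside 12.0% and 11.9% of all genes. Above control lay 4 members (12.5%) in Shn-RNAi and 7 (21.9%) in Shn-RNAi puc, beside 28.8% and 48.9% of all genes. Over all genes 582 were then called higher and 164 lower in Shn-RNAi, and 1383 and 252 in Shn-RNAi puc, where TMM factors gave 550 and 323, and 795 and 567.

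**Figure D1:**
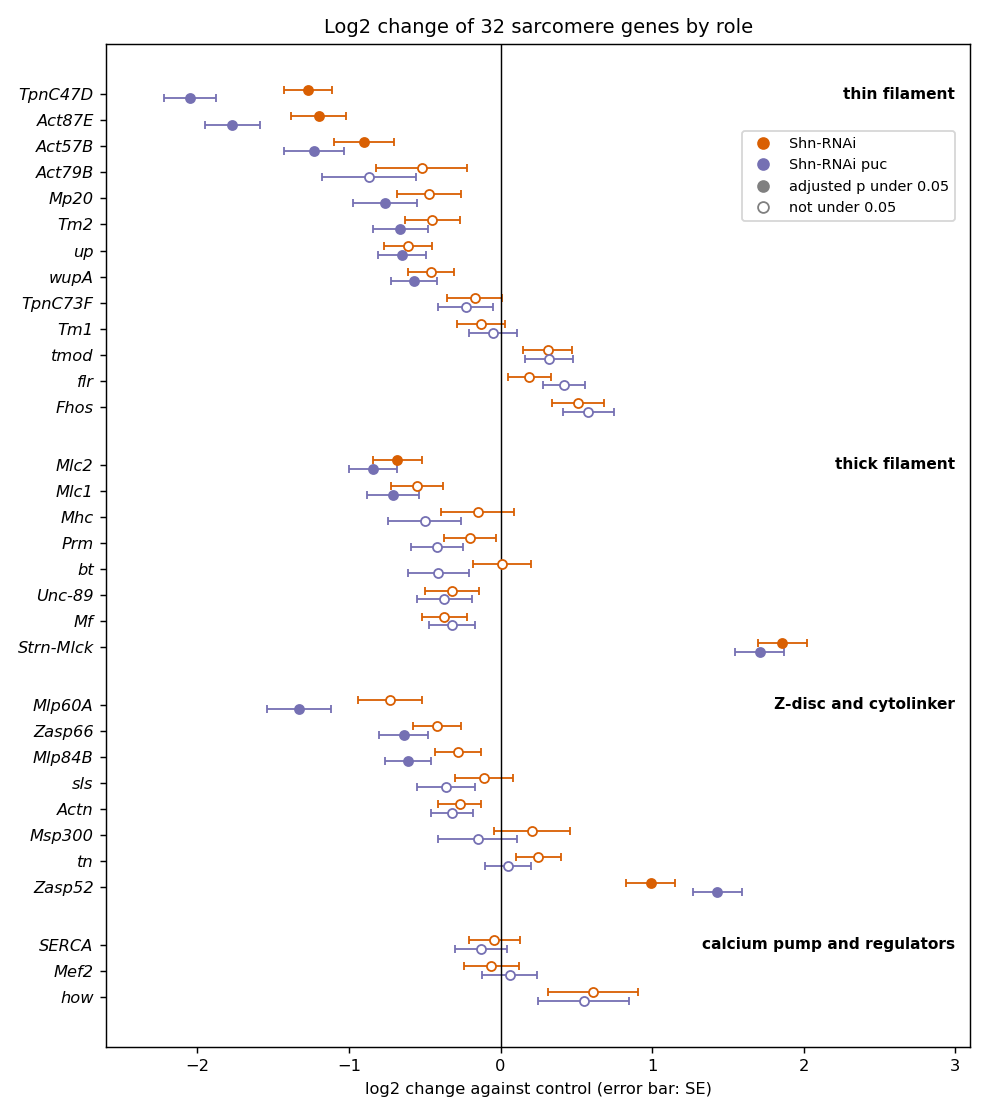
Log2 change against control of the 32 tested members, grouped by role. Each point is the edgeR log2 change with its SE, orange for Shn-RNAi and purple for Shn-RNAi puc, filled where the adjusted p is under 0.05. TpnC47D has the lowest values (-1.27 and -2.05), and Strn-Mlck and Zasp52 stand alone on the right.

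Actin is the main protein of the thin filament. The gene Act57B, on the plus strand of 2R from 20944021 to 20946431 (BDGP6), had levels of 1147, 1206 and 1293 CPM in the control libraries. Its levels were 655 and 650 CPM in Shn-RNAi, and 605 and 434 CPM in Shn-RNAi puc. The 4 libraries of both RNAi groups thus lay far below the control libraries, without overlap. The log2 change was -0.90 in Shn-RNAi (SE 0.20, edgeR adjusted p = 0.032) and -1.23 in Shn-RNAi puc (SE 0.20, edgeR adjusted p = 0.0087), or 53.7% and 42.7% of control. Act87E (3R 13425983 to 13428375, plus strand), a second muscle actin, was at 290, 280 and 327 CPM in control, 143 and 117 in Shn-RNAi, and 93.3 and 81.9 CPM in Shn-RNAi puc. Its fall was steeper, to 43.6% of control (log2 -1.20, SE 0.18, edgeR adjusted p = 0.0071) and 29.3% (log2 -1.77, SE 0.18, edgeR adjusted p = 0.0016). Act57B exceeded Act87E by 3.95 to 4.31 times in the control libraries and by 4.57 to 6.48 times in the other 4. Act79B did not pass the test (log2 -0.52 and -0.87, edgeR adjusted p = 0.32 and 0.095), and Shn-RNAi library 2 (12.4 CPM) lay within the control values. The coding sequences of fly actins are nearly identical, so reads may be shared between these genes and with the cytoplasmic actins.

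Without any one library Act87E kept both calls. Act57B kept its Shn-RNAi call in 2 of 7 refits, when a Shn-RNAi puc library was left out (highest adjusted p = 0.11, without control library 1), and its Shn-RNAi puc call in 6 (adjusted p = 0.072 without Shn-RNAi puc library 2).

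The cytoplasmic actins moved the other way in their values. Act42A rose from 272, 301 and 169 CPM in control to 624 and 904 CPM in Shn-RNAi (log2 1.62, SE 0.27, edgeR adjusted p = 0.012) and 793 and 818 CPM in Shn-RNAi puc (log2 1.70, SE 0.27, edgeR adjusted p = 0.0080). Act5C, by far the most abundant actin at 4687 to 4786 CPM in control, was at 5343 to 7352 CPM in the other 4 libraries and did not pass (edgeR adjusted p = 0.51 and 0.15). Summed over genes, muscle actins lay below control in all 4 RNAi libraries, also as plain shares of counts (1527 ± 95.2 CPM in control, 792 ± 16.8 in Shn-RNAi, 614 ± 128 in Shn-RNAi puc, mean ± SD). The call of Act42A was lost without Shn-RNAi library 2 in the first comparison (adjusted p = 0.058), and without either Shn-RNAi puc library in the second (highest adjusted p = 0.086).

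**Figure D2:**
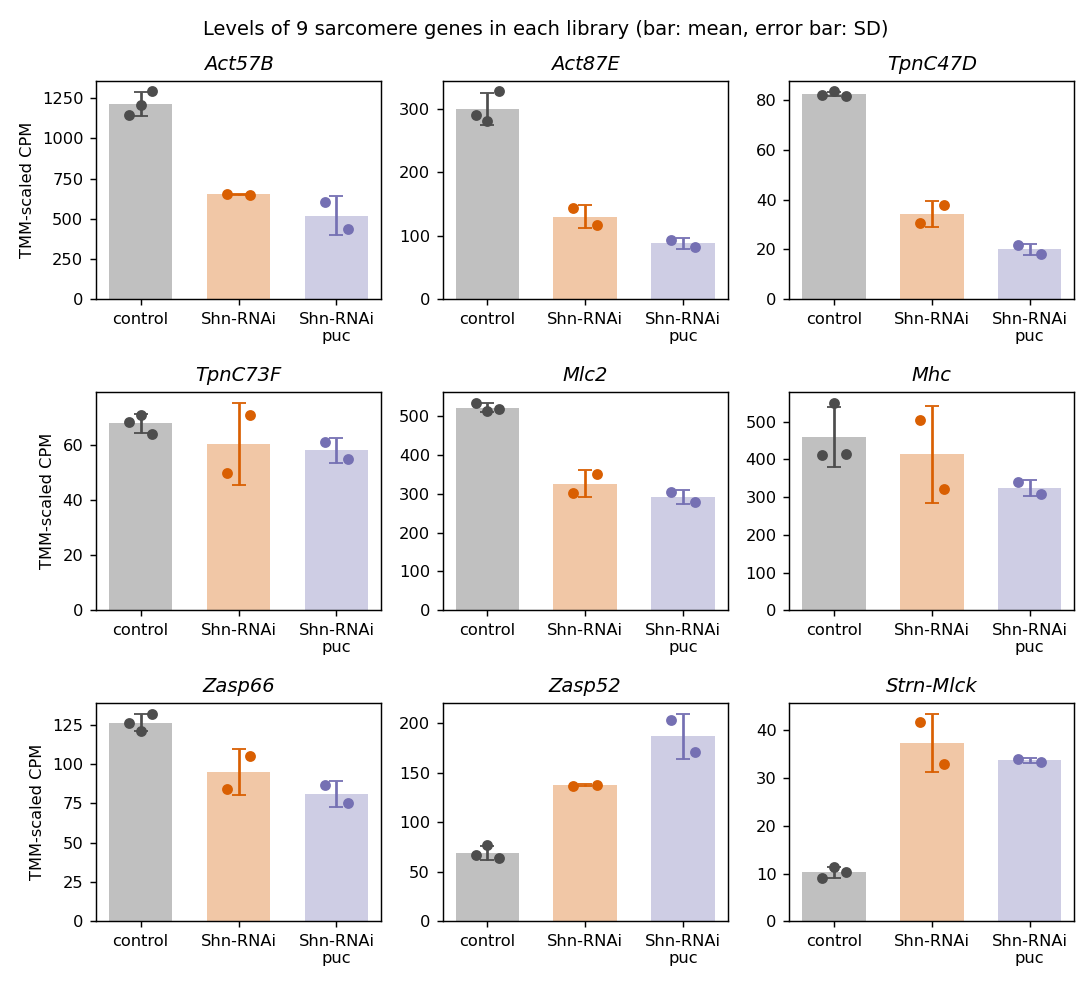
Levels of 9 members in each library, in TMM-scaled CPM on axes that start at 0, where points are libraries, bars are group means and error bars are SD (n = 3, 2 and 2). Act57B, Act87E, TpnC47D and Mlc2 show no overlap between control and the other groups, Mhc and TpnC73F overlap with control in Shn-RNAi, and Zasp52 and Strn-Mlck lie above control.

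Troponin C is the calcium sensor of the thin filament, and its genes behaved unequally. For TpnC47D (2R 11273845 to 11275286, minus strand) the control libraries gave 82.1, 83.4 and 81.5 CPM. The levels were 30.6 and 37.9 CPM in Shn-RNAi, and 21.6 and 18.3 CPM in Shn-RNAi puc. The groups were fully separated, with the lowest values in Shn-RNAi puc. Its log2 changes were -1.27 (SE 0.16, edgeR adjusted p = 0.0038) and -2.05 (SE 0.17, edgeR adjusted p = 0.00074), or 41.6% and 24.2% of control, the lowest among the members, and both calls were kept in each of the 7 refits. TpnC73F (3L 17046063 to 17048390, plus strand) was at 68.5, 71.2 and 64.3 CPM in control, 49.9 and 71.2 in Shn-RNAi, and 61.4 and 55.0 CPM in Shn-RNAi puc, and did not pass (log2 -0.17, SE 0.18 and -0.23, SE 0.18; edgeR adjusted p = 0.60 and 0.45). The ratio of TpnC73F to TpnC47D counts was 0.789 to 0.854 in the control libraries, 1.63 and 1.88 in Shn-RNAi, and 2.85 and 3.01 in Shn-RNAi puc. Control and RNAi libraries did not overlap in this ratio, so the most represented of the pair differed between the groups. A further troponin C gene that is not a member, TpnC25D, chosen after its values were seen, stood at 41.7 to 57.6 CPM in control and was not called (edgeR adjusted p = 0.45 and 0.38).

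Both other troponin subunits, the tropomyosin Tm2 and Mp20 were called lower in Shn-RNAi puc and not called in Shn-RNAi. Troponin T (up), which ties troponin to tropomyosin, had control levels of 373, 365 and 399 CPM, against 260 and 239 CPM in Shn-RNAi and 260 and 222 CPM in Shn-RNAi puc. Troponin I (wupA), which holds contraction off without calcium, had 267, 262 and 260 CPM in control, 183 and 202 in Shn-RNAi, and 189 and 166 in Shn-RNAi puc. Tropomyosin covers the myosin-binding sites of actin at rest. Tm2 had 288, 279 and 313 CPM in control, 194 and 236 in Shn-RNAi, and 204 and 167 in Shn-RNAi puc. Mp20 had 324, 301 and 370 CPM in control, 197 and 281 in Shn-RNAi, and 213 and 180 in Shn-RNAi puc. In all 4 genes every library of both RNAi groups lay below every control library. The log2 values in Shn-RNAi were -0.61 to -0.45 (edgeR adjusted p = 0.056 to 0.19). Each was called in Shn-RNAi puc, with log2 changes of -0.65 for up, -0.57 for wupA, -0.66 for Tm2 and -0.76 for Mp20 (edgeR adjusted p = 0.034 to 0.048). These 4 calls were kept in 2 of the 7 refits, those without a Shn-RNAi library, and lost without any control or Shn-RNAi puc library (highest adjusted p = 0.29, for Mp20 without Shn-RNAi puc library 2). With the transcript-length trend taken out wupA was not called (adjusted p = 0.059), and with no low-count filter Tm2, wupA and Mp20 were not.

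Tm1, which also makes tropomyosins of non-muscle cells, stood at 372, 390 and 372 CPM in control, 379 and 313 in Shn-RNAi, and 362 and 368 in Shn-RNAi puc. It was not called (log2 -0.13 and -0.05, SE 0.16 each, edgeR adjusted p = 0.67 and 0.87). The genes for filament length and turnover had positive values that did not pass: the pointed-end cap tmod (log2 0.31 and 0.32), the formin Fhos (0.51 and 0.58, edgeR adjusted p = 0.091 and 0.051) and flr, a cofactor of actin disassembly (0.19 and 0.42, edgeR adjusted p = 0.46 and 0.085). In these 3 all 4 RNAi libraries lay above control. Over the thin filament, 3 of 13 tested genes were called lower in Shn-RNAi and 7 of 13 in Shn-RNAi puc, beside 3.56% and 6.25% of all genes. In either comparison 0 were called higher, beside 6.06% and 8.76% of all genes, and the median log2 changes were -0.46 and -0.65. With library totals in place of TMM factors, 3 thin filament genes were called lower and 2 higher (Fhos and flr) in Shn-RNAi puc.

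Among thick filament genes the light chains of myosin were lower. The regulatory light chain Mlc2 (3R 30171438 to 30174551, minus strand) had control levels of 535, 512 and 518 CPM, against 301 and 351 CPM in Shn-RNAi, and 304 and 279 CPM in Shn-RNAi puc. All RNAi libraries lay well below control, and both RNAi groups overlapped each other. The log2 change was -0.68 (SE 0.16, edgeR adjusted p = 0.039) and -0.84 (SE 0.16, edgeR adjusted p = 0.016). The essential light chain Mlc1 (210, 221 and 208 CPM in control, 129 and 162 in Shn-RNAi, 142 and 119 in Shn-RNAi puc) was called in Shn-RNAi puc (log2 -0.71, SE 0.17, edgeR adjusted p = 0.031) and not in Shn-RNAi (-0.55, SE 0.17, edgeR adjusted p = 0.083). The Mlc2 call in Shn-RNAi was lost in each of the 7 refits (highest adjusted p = 0.17, without control library 1). In Shn-RNAi puc Mlc2 kept its call in 3 refits and Mlc1 in 2, and both lost it without control library 1 or 3 or either Shn-RNAi puc library, Mlc1 also without control library 2.

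The myosin heavy chain, encoded in flies by the single muscle gene Mhc (2L 16766566 to 16788766, plus strand), was at 411, 551 and 415 CPM in control, 505 and 323 in Shn-RNAi, and 340 and 309 CPM in Shn-RNAi puc. Control library 2 and Shn-RNAi library 1 were high, and Shn-RNAi overlapped control. It was not called (log2 -0.15, SE 0.24 and -0.50, SE 0.24; edgeR adjusted p = 0.74 and 0.21). The other thick filament proteins, namely paramyosin (Prm), myofilin (Mf), projectin (bt) and the M-line protein obscurin (Unc-89), had log2 changes of -0.37 to 0.01 in Shn-RNAi and of -0.42 to -0.32 in Shn-RNAi puc, and none was called (lowest edgeR adjusted p = 0.14). Both Shn-RNAi puc libraries of each of these 4 lay below all control libraries. The most abundant of them per length, Mf, had 196, 199 and 207 CPM in control, 147 and 164 in Shn-RNAi, and 169 and 153 in Shn-RNAi puc.

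Strn-Mlck (2R 15946933 to 15989498, minus strand), which encodes a titin-like protein related to myosin light chain kinase, went against the rest. Its control levels were 9.02, 11.4 and 10.4 CPM, against 41.7 and 33.0 CPM in Shn-RNAi, and 34.0 and 33.4 CPM in Shn-RNAi puc. The lowest RNAi library was far above the highest control library. The level was 3.64 times that of control in Shn-RNAi (log2 1.86, SE 0.16, edgeR adjusted p = 0.0010) and 3.28 times in Shn-RNAi puc (log2 1.71, SE 0.16, edgeR adjusted p = 0.0011), and both calls were kept in each of the 7 refits. Its exons overlap those of Cyp4aa1 on the other strand, and no source used here states whether counting used strand. Cyp4aa1 itself was at 1.05 to 5.97 CPM in control and 7.00 to 9.16 CPM in the other 4 libraries, below the level of Strn-Mlck in each.

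At the Z-disc, where thin filaments are cross-linked, neighbours in function also moved apart. Zasp52 (2R 15762565 to 15817004, minus strand), an alpha-actinin-binding scaffold that flies also need at integrin adhesion sites, had control levels of 67.0, 76.9 and 63.9 CPM, against 137 and 138 CPM in Shn-RNAi, and 203 and 171 CPM in Shn-RNAi puc. The 3 groups did not overlap. It was 1.98 and 2.70 times as high as in control (log2 0.99, SE 0.16, edgeR adjusted p = 0.0096, and log2 1.43, SE 0.16, edgeR adjusted p = 0.0020). Without control library 1 the first call was lost (adjusted p = 0.057).

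Its relative Zasp66 (3L 8624371 to 8638813, plus strand) was at 126, 121 and 132 CPM in control, 84.4 and 105 in Shn-RNAi, and 86.8 and 75.3 CPM in Shn-RNAi puc. The ratio of Zasp52 to Zasp66 was 0.484 to 0.633 in control, 1.62 and 1.32 in Shn-RNAi, and 2.34 and 2.28 in Shn-RNAi puc. Zasp66 was called lower in Shn-RNAi puc (log2 -0.64, SE 0.16, edgeR adjusted p = 0.035) and not in Shn-RNAi (-0.42, edgeR adjusted p = 0.14). The muscle LIM protein Mlp60A (268, 226 and 265 CPM in control, 126 and 180 in Shn-RNAi, 111 and 91.5 in Shn-RNAi puc) fell to 39.9% of control in Shn-RNAi puc (log2 -1.33, SE 0.21, edgeR adjusted p = 0.0077), with -0.73 in Shn-RNAi (edgeR adjusted p = 0.064). Its relative Mlp84B was at 108, 116 and 97.1 CPM in control, 89.2 and 87.1 in Shn-RNAi, and 67.7 and 72.8 in Shn-RNAi puc (log2 -0.61, SE 0.15, edgeR adjusted p = 0.031 in Shn-RNAi puc, and -0.28, adjusted p = 0.27 in Shn-RNAi). Mlp60A kept its call in 5 of 7 refits and lost it without either Shn-RNAi puc library. Zasp66 and Mlp84B kept theirs in the 2 refits without a Shn-RNAi library (highest adjusted p = 0.24, for Zasp66 without Shn-RNAi puc library 2).

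The remaining Z-disc and cytolinker genes were not called in either comparison: Actn (log2 -0.27 and -0.32), sls (-0.11 and -0.36), tn, a TRIM-family protein that keeps sarcomeres intact (0.25 and 0.05), and Msp300, a giant nesprin that links nuclei to the cytoskeleton (0.21 and -0.15). Msp300 was at 246 CPM in Shn-RNAi library 1 and between 143 and 203 CPM in the other 6 libraries. In all, 1 of 8 Z-disc and cytolinker genes was higher and 0 lower in Shn-RNAi, and 1 was higher and 3 lower in Shn-RNAi puc. Over all genes 6.06% were called higher and 3.56% lower in Shn-RNAi, and 8.76% and 6.25% in Shn-RNAi puc.

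The regulators of the muscle programme and the calcium pump were not called. SERCA, which returns calcium to the store after contraction, was at 223, 250 and 245 CPM in control, 258 and 209 in Shn-RNAi, and 230 and 209 in Shn-RNAi puc (log2 -0.04 and -0.13, SE 0.17 each, edgeR adjusted p = 0.91 and 0.66). Mef2, the transcription factor that drives structural muscle genes, was at 24.8, 28.0 and 24.8 CPM in control, 29.7 and 20 in Shn-RNAi, and 27.9 and 26.3 in Shn-RNAi puc (log2 -0.06 and 0.06, SE 0.18 each, edgeR adjusted p = 0.87 and 0.86). The RNA-binding protein how was at 6.80, 9.39 and 6.37 CPM in control, 15.3 and 7.63 in Shn-RNAi, and 11.6 and 10.6 in Shn-RNAi puc (log2 0.61 and 0.55, SE 0.30 each, edgeR adjusted p = 0.24 and 0.27). SERCA and Mef2 overlapped control in both groups, and the Shn-RNAi libraries of how lay on either side of the highest control value.

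Summed over all 35 members, the level was 6230, 6574 and 6513 CPM in control, 4977 and 4726 CPM in Shn-RNAi, and 4540 and 4056 CPM in Shn-RNAi puc. On this scale the 3 groups were separate, at 75.4% and 66.7% of the control mean in the RNAi groups. As a plain share of counts the members took 0.548%, 0.644% and 0.558% in control, 0.565% and 0.439% in Shn-RNAi, and 0.476% and 0.497% in Shn-RNAi puc, or 86.1% and 83.4% of the control mean. Shn-RNAi library 1 then lay within the control values, and both Shn-RNAi puc libraries between the Shn-RNAi libraries. By role and with TMM factors, thin filament genes stood at 66.9% and 59.7% of control, thick filament genes at 79.8% and 68.8%, and Z-disc and cytolinker genes at 92.4% and 81.8%. The calcium pump and regulators stood at 98.8% and 94.3%, with overlapping libraries. As plain shares thin filament genes were at 76.4% and 74.7% of control and thick filament genes at 91.3% and 85.8%. Z-disc and cytolinker genes, at 105% and 102%, and the calcium pump and regulators, at 114% and 118%, had means above control. Z-disc libraries overlapped control (0.0733% to 0.0909% in control, 0.0954% and 0.0738% in Shn-RNAi, 0.0776% and 0.0868% in Shn-RNAi puc). For the calcium class the Shn-RNAi libraries (0.0344% and 0.022%) lay on either side of control (0.0224% to 0.0281%), and the Shn-RNAi puc libraries (0.0282% and 0.0301%) above it. These sums weight abundant genes, and the difference between roles was not tested.

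**Figure D3:**
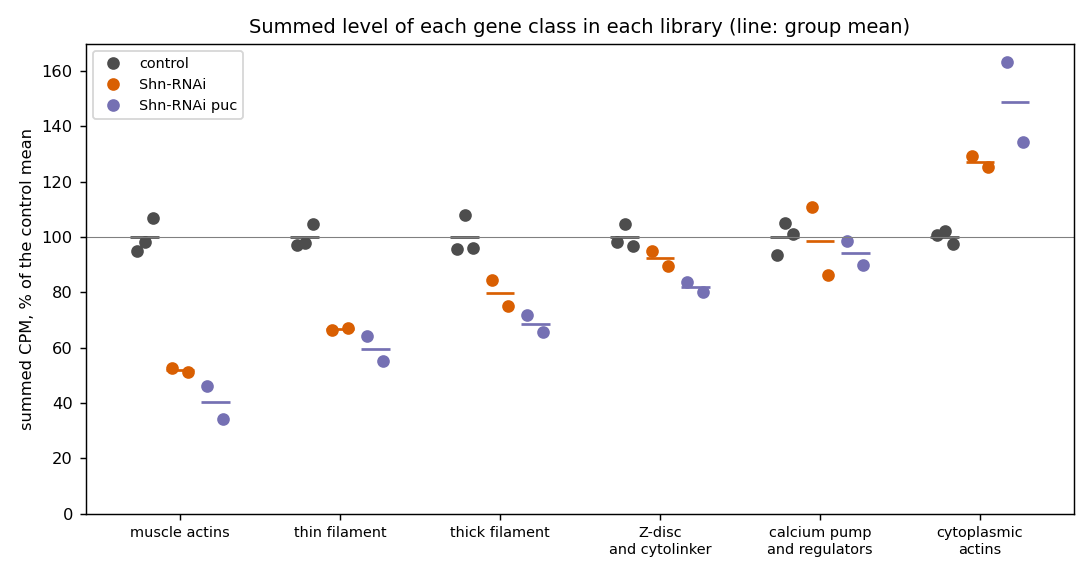
Summed TMM-scaled CPM of each class of genes as a percentage of its control mean (vertical axis), for each library (points) with the group mean (line). Muscle actins, which are part of the thin filament class, lie lowest, at 51.9% and 40.2% of control, and cytoplasmic actins lie above control at 127% and 149%. As plain shares of counts the Z-disc and calcium classes lie above control on average.

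The changes of the members varied with transcript length. All 14 members under 2 kb had negative log2 changes in both comparisons, with medians of -0.50 and -0.69, where all 4793 tested genes of that length had medians of -0.11 and -0.13. The 6 members of 5 kb or more (Fhos, Mhc, bt, Unc-89, sls and Msp300) had medians of -0.05 and -0.36, where all 722 such genes had 0.39 and 0.19. The 12 members of 2 to 5 kb had medians of 0.07 and 0.06, near the 0.13 and 0.15 of all 3534 such genes. The shortest and longest members thus had medians below those of genes of their length, and in neither comparison did the members' medians rise steadily with length. Across the 32 members Pearson's r between log2 change and log10 length was 0.42 in Shn-RNAi and 0.35 in Shn-RNAi puc (Spearman's rho 0.70 and 0.60), and across 9049 genes r was 0.12 and 0.14 (rho 0.32 and 0.31). These are correlations across genes that share their libraries, and genes are not independent replicates.

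Length also set libraries of a group apart. Genes of 5 kb or more had a median log2 ratio to the control mean of 0.59 in Shn-RNAi library 1 and 0.11 in library 2, 0.12 and 0.28 in the Shn-RNAi puc libraries, and -0.05, 0.20 and -0.14 in the control libraries. Mhc, bt and Msp300 were high in the same libraries, Shn-RNAi library 1 and control library 2. With the trend on length taken out of each library, 10 members were called lower in Shn-RNAi and 15 in Shn-RNAi puc, while lower calls over all genes went from 323 to 592 (6.52%) and from 567 to 693 (7.64%). Mhc, bt and Actn were then called lower in both comparisons (Mhc log2 -0.60 and -0.71, edgeR adjusted p = 0.039 and 0.018). Prm was called in Shn-RNAi puc, and Unc-89, up and Mlp60A in Shn-RNAi. Zasp52 (0.78 and 1.27) and Strn-Mlck (1.52 and 1.52) stayed higher and were called in both comparisons.

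**Figure D4:**
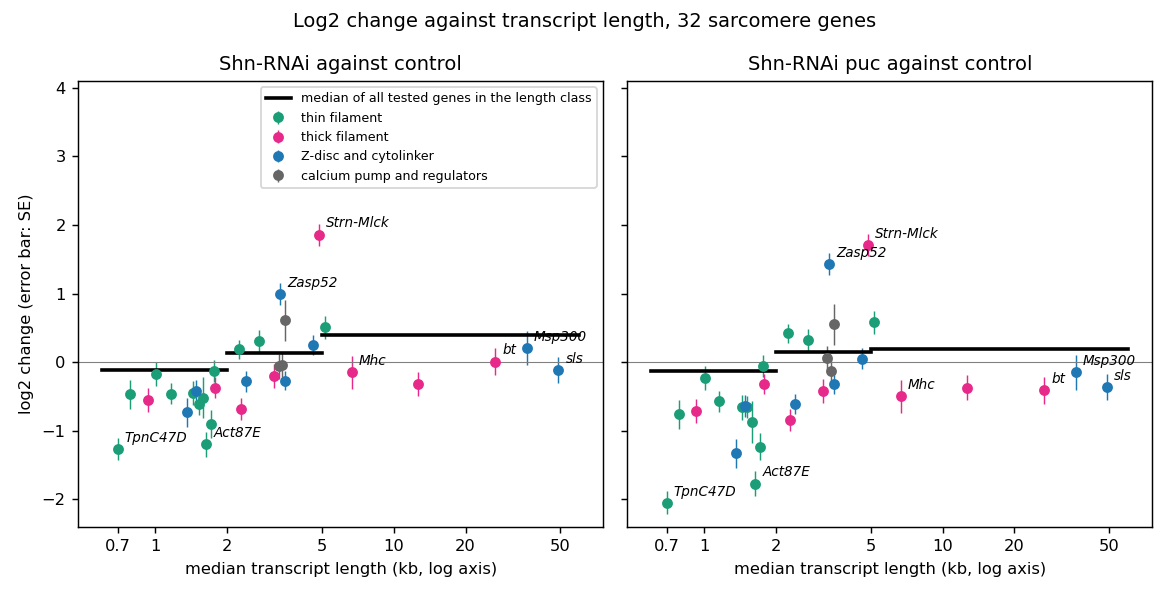
Log2 change against control (vertical axis, error bars SE) against median annotated transcript length in kb (log axis) for the 32 tested members, coloured by role. Black lines are the medians of all tested genes in 3 length classes. Members under 2 kb lie below 0 in both panels, and most members of 5 kb or more lie below the black line of their class.

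The third comparison asked what 1 mutant copy of puckered changes in midguts with the RNA interference. None of the 32 members was called between Shn-RNAi puc and Shn-RNAi by edgeR, where 0.143% of all genes (13 of 9076) were called, 0.0881% higher and 0.0551% lower. An unadjusted edgeR p under 0.05 was found for 4 of the 32 members and for 579 of all 9076 genes. DESeq2 called 1 member, TpnC47D, lower, where it called 0.584% of all genes lower and 0.441% higher. With limma-voom 0 members were called. The median log2 difference was -0.16 over the members, beside -0.01 over all genes, and 25 of the 32 values were negative. In 9 members (28.1%) both Shn-RNAi puc libraries lay below both Shn-RNAi libraries, beside 11.9% of all genes, and in 2 (6.25%) above them, beside 16.1%. Those below included TpnC47D (log2 -0.78, SE 0.17, edgeR adjusted p = 0.21), Mlp60A (-0.60, SE 0.22, adjusted p = 0.68) and Act87E (-0.57, SE 0.19, adjusted p = 0.57). Zasp52 had the highest value (0.45, SE 0.17, adjusted p = 0.72). Each of these groups had 2 libraries, and a p that misses the threshold does not show that the groups are alike.

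Other genes were taken from lists by function, also chosen with earlier results of these data known. The lists include cytoplasmic actomyosin genes, which are not particular to muscle, and midgut RNA does not show in which cells a level differed. Of 11 genes that attach muscle to the matrix, 6 were called higher in Shn-RNAi and 5 in Shn-RNAi puc, and 0 lower. Over all genes 6.06% and 8.76% were called higher. The genes named here have transcripts of 2.65 to 9.46 kb. Of all 722 genes of 5 kb or more, 69 and 78 were called higher and 0 and 7 lower. With the length trend taken out, mys kept both calls, Dg and Scgdelta those in Shn-RNAi, and mew and rhea those in Shn-RNAi puc. The beta integrin mys stood at 87.3 to 141 CPM in control and 299 to 379 CPM in the 4 RNAi libraries (log2 1.52 and 1.54, SE 0.23 each, edgeR adjusted p = 0.0082 and 0.0061). Dystroglycan (Dg, log2 1.17 and 1.09, SE 0.22 each, adjusted p = 0.016 in both), the integrin subunit mew (0.96 and 0.99, SE 0.18 each, adjusted p = 0.019 and 0.013) and talin (rhea, 1.16 in both, SE 0.22 each, adjusted p = 0.019 and 0.015) were also higher in both comparisons. The sarcoglycan Scgdelta was higher in Shn-RNAi (0.84, SE 0.16, adjusted p = 0.017) and not called in Shn-RNAi puc (0.27, SE 0.16, adjusted p = 0.30). These genes are also expressed in the epithelium. The mys call was lost without Shn-RNAi puc library 2 in the second comparison, the Shn-RNAi calls of Dg and Scgdelta without control library 1 or Shn-RNAi library 1, Scgdelta also without control library 3, and the Shn-RNAi puc calls of mew and rhea without control library 1 or 3 or either Shn-RNAi puc library (highest adjusted p = 0.14, for rhea).

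Of 12 calcium-handling genes edgeR, DESeq2 and limma-voom each called 0 in either comparison, with medians of 0.30 and 0.32. An unadjusted edgeR p under 0.05 was found for 0 of the 12 in Shn-RNAi and 1 in Shn-RNAi puc, beside 2432 and 2774 of all 9076 genes. Of 10 genes for sarcomere assembly and chaperones, stv, a co-chaperone that clears damaged filamin at Z-discs, was higher in both (log2 0.96 and 0.97, SE 0.18 each, edgeR adjusted p = 0.018 and 0.014). In Shn-RNAi puc the capping protein cpb was higher (0.57, SE 0.14, adjusted p = 0.032), and the small heat shock protein l(2)efl fell from 276 to 385 CPM in control to 116 and 83.2 CPM (log2 -1.74, SE 0.26, adjusted p = 0.0061). In Shn-RNAi l(2)efl was at 139 and 206 CPM (log2 -0.95, SE 0.25, adjusted p = 0.055). Of 8 cytoplasmic actomyosin genes 3 were higher in Shn-RNAi and 4 in Shn-RNAi puc, beside 6.06% and 8.76% of all genes, with 0 lower. Called in both was the filamin cher (36.1 to 56.9 CPM in control, 210 to 299 in the 4 RNAi libraries, log2 2.64 and 2.42, SE 0.23 each, adjusted p = 0.0010 and 0.0011), as was Act42A. Also called were the non-muscle myosin heavy chain zip in both (1.05 and 0.98, SE 0.21 each, adjusted p = 0.022 and 0.021) and its light chain sqh in Shn-RNAi puc (0.92, SE 0.17, adjusted p = 0.014). Of 6 tested muscle transcription factors 0 were called in Shn-RNAi by edgeR, DESeq2 or limma-voom. An unadjusted edgeR p under 0.05 was found for 2 of these 6 in Shn-RNAi, beside 2432 of all 9076 genes. The factor org-1 was higher in Shn-RNAi puc (2.47 to 2.98 CPM in control, 6.10 and 5.44 CPM, log2 1.08, SE 0.22, edgeR adjusted p = 0.018). In refits without 1 library cher kept both calls, and l(2)efl was lost without Shn-RNAi puc library 2 (adjusted p = 0.093). The calls of stv in both comparisons, of zip in Shn-RNAi, and of cpb, sqh and org-1 in Shn-RNAi puc were kept in 2 to 4 of 7 refits. Each was lost without control library 1 and without either Shn-RNAi puc library (highest adjusted p = 0.19, for cpb without Shn-RNAi puc library 2). All but that of stv in Shn-RNAi puc were also lost without control library 3, cpb without control library 2, zip without Shn-RNAi library 1, and stv in Shn-RNAi without Shn-RNAi library 2.

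Markers of other cells moved with the groups too. Summed over 6 enterocyte markers, levels ran from 3139 to 3419 CPM in control, 4547 to 4897 in Shn-RNAi and 4358 to 5297 in Shn-RNAi puc. In each comparison with control 2 of 6 were called higher, beside 6.06% and 8.76% of all genes. Summed over 7 intestinal progenitor markers levels ran from 46.2 to 71.0, 75.0 to 90.9 and 69.3 to 84.2 CPM, with 1 and 0 of 7 called. Tubule and hindgut markers (5 genes) summed to 18.8 to 30.0, 43.0 to 55.5 and 26.3 to 45.9 CPM, neuron markers (5 genes) to 7.56 to 14, 13.2 to 13.3 and 12.9 to 17.2 CPM, and tracheal markers (3 genes) to 11.2 to 16.7, 8.96 to 12.1 and 11.5 to 13.2 CPM. Fat body markers (3 genes) summed to 37.1 to 86.4, 36.8 to 70.2 and 34.0 to 37.9 CPM, and hemocyte markers (5 genes) to 14 to 17.4, 9.61 to 12.4 and 18.5 to 18.7 CPM, with Hml called higher in Shn-RNAi puc. The tubule and hindgut marker called higher in Shn-RNAi puc was byn, a hindgut gene. Enterocyte, progenitor and tubule and hindgut sums were higher in Shn-RNAi than in any control library, while the flight muscle genes Act88F and TpnC4 together stayed between 0.195 and 0.440 CPM in all 7. The part of these cells in the muscle results was not tested.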

How the data were processed

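The authors deposited whole-number counts per gene for 7 libraries whose totals differ. Salmon 1.0.0, DESeq2 and the build BDGP6 are named, per the submitters' processing notes, without their roles, and use of strand is not stated. Table columns name a genotype and were matched to groups only, so library numbers are names.

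Tests used edgeR 4.0.16 (R 4.3.3) on the deposited counts: filterByExpr by group left 9076 of 10902 genes, libraries were scaled with TMM, and 1 quasi-likelihood model held all 7 libraries in 3 groups (4 residual degrees of freedom). The tests were two-sided, with Benjamini-Hochberg adjustment across the 9076 genes. SE is the log2 change divided by the square root of F, and is approximate. Spreads between libraries are SD. Transcript lengths and positions are from the Ensembl 115 annotation of BDGP6, in which 10869 symbols were found.

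Members and lists were chosen with earlier results of these data known. Values per library are given for members called in any comparison and for up to 3 members per role with the highest per-length control level, and other members are summarised or named for contrast. Of each functional list up to 3 called genes are named for each comparison. Alternatives were DESeq2 1.42.0, limma-voom (limma 3.58.1), scaling by RLE or upper quartile, removal of the 50 genes of highest level, omitting the low-count filter or asking for 1 CPM in at least 2 libraries, fitting only the 2 groups compared, taking out a transcript-length trend, and leaving out each library. Scaling by library totals without TMM factors and a block for the number in the column name were added after the data were seen.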

Additional observations from a re-analysis of the deposited data

How the results depend on the processing

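In Shn-RNAi the number of members called lower was 4, and 8 with DESeq2 and 10 with the length trend taken out, where the median log2 change went from -0.23 to -0.38. Lower calls over all genes went from 323 to 575 and 592 at these settings. The members gained with DESeq2 were Mlc1, Mlp60A, up and wupA, and up was also gained with limma-voom and with upper-quartile scaling. Leaving out 1 control library gave 2 lower, beside 0.707% to 2.49% of all genes, and 1 to 2 higher, beside 2.44% to 4.64%. In Shn-RNAi puc the 12 lower calls became 2 to 13 when 1 library was left out (3 and 2 without Shn-RNAi puc library 1 or 2, 4, 5 and 4 without control library 1, 2 or 3), while calls over all genes went from 567 lower to 92, 33, 141, 455 and 196. A refit with a lone library assumes that it varies like the others. Fitting only the 2 groups compared gave 4 higher and 13 lower in Shn-RNAi puc, where 13.4% and 11.3% of all genes were called. Between Shn-RNAi puc and Shn-RNAi, DESeq2 called 1 lower, beside 0.584% of all genes, and the median was -0.04 with the length trend taken out. The cause was not tested.

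Of 1278 refitted log2 changes of named genes 1110 kept direction and call, 135 lost a call and 10 gained one. Many of the 1278 were not called in the main fit and could not lose a call, so 135 of 1278 understates how often calls were lost. Of the 11 alternatives that did not leave out a library, Mlc2 in Shn-RNAi and wupA in Shn-RNAi puc kept their calls in 7. Act87E, TpnC47D and Strn-Mlck kept both calls in all 11. The remaining 23 of the 1278 changed sign, all in values that were not called. With the length trend taken out these were Mef2 in Shn-RNAi puc (-0.11) and how between the RNAi groups (0.03, and 0.01 with limma-voom). With 1 library left out they were SERCA (-0.20 to 0.11) and Mef2 (-0.38 to 0.20) in Shn-RNAi, and, between the RNAi groups, up (-0.17 to 0.06), Mlc1 (-0.31 to 0.01), Mf (-0.02 to 0.13), Strn-Mlck (-0.31 to 0.03), SERCA (-0.24 to 0.07), Mef2 (-0.14 to 0.44) and how (-0.47 to 0.54). With library totals in place of TMM factors they were SERCA (0.16) and Mef2 (0.15) in Shn-RNAi, Mf (0.01) and SERCA (0.19) in Shn-RNAi puc, and up (0.08), wupA (0.03), SERCA (0.03) and how (0.03) between the RNAi groups. Groups of 2 libraries limit what can be called.

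With library totals in place of TMM factors, 4 members were called higher and 5 lower in Shn-RNAi puc, and the median log2 changes were -0.04, -0.06 and, between the RNAi groups, -0.02. Column names carry the numbers 1 and 2 in each group, with no source saying that a number marks a shared batch. Deviations from the group means of same-numbered libraries correlated at -0.13 to 0.20 across 9076 genes, and those of other numbers at -0.26 to 0.26. In a group of 2 libraries the deviations mirror each other, so each correlation has a counterpart of opposite sign. The ranges therefore cannot decide whether a number marks a batch. With the number as a replicate block, 1 member was called higher and 2 lower in Shn-RNAi, and 2 higher and 3 lower in Shn-RNAi puc. Over all genes 230 were then called higher and 91 lower in Shn-RNAi, and 309 and 159 in Shn-RNAi puc. Only control has a library 3, so in this fit that library does not inform the comparisons. Fewer residual degrees of freedom also remain, so a lost call does not show that the number matters. Lost in Shn-RNAi were Act57B, Mlc2 and Zasp52 (edgeR adjusted p = 0.16, 0.20 and 0.082). Lost in Shn-RNAi puc were Act57B (edgeR adjusted p = 0.052), Mlc1, Mlc2, Mlp84B, Mp20, Tm2, Zasp66, up and wupA.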
